A study of Drosophila melanogaster with 3 samples.

Results

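Penelope small RNAs that begin late in the element's reading frame, just before its right terminal repeat, were described in ovaries of the Drosophila melanogaster strains A1a, A2d and A2h. Members were all listed sequences of either orientation whose lowest listed start, counted from 0, was 2200 to 2782, with each sequence counted once per strain. Counted from 1, these starts are positions 2201 to 2783 of the authors' Penelope sequence, a window of 583 nt or 17.2% of its 3399 nt. The rule took 183 of the 970 sequences listed for A1a, 356 of the 1800 for A2d and 71 of the 474 for A2h. Over the 3 libraries it took 508 of 2670 distinct sequences. All members matched at 1 place only, since sequences that lie wholly in the right repeat have their lowest start in the left one.

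Each strain was sequenced as 1 library of ovarian RNA from flies 3 to 5 days old kept at 25 degrees, cut to 23 to 29 nt on a gel. The strains are given by name only, with no other genotype, treatment or control group in the sources used here. The deposited values are raw read counts per sequence that matches Penelope, so the tissue label could not be checked against marker genes. The A1a list held 1777 reads, the A2d list 3870 and the A2h list 748. With 1 library per strain, no test between strains was possible, and a library cannot be told apart from its strain. Ranges in brackets are exact (Clopper-Pearson) 95% binomial intervals on reads. They cover counting error only and are too narrow for reads amplified by PCR without molecular identifiers.

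Penelope, a retroelement first described in Drosophila virilis, is not native to D. melanogaster. It encodes a reverse transcriptase followed by a GIY-YIG endonuclease. piRNAs are germline small RNAs that guide Piwi proteins to transposon transcripts. Antisense piRNAs, often with U as their first base, guide slicing of the sense transcript, and the slice makes the first base of a new sense piRNA. A sense piRNA made this way overlaps its guide by 10 nt at their 5′ ends and carries A at base 10 opposite the U, a cycle known as ping-pong.

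The longest reading frame of the element, rebuilt from the listed matches, ran from 617 to 3190 with 857 codons, and the window covered codons 529 to 723. Its plus strand held 45.3% A, 19.7% C, 13.6% G and 21.4% T. Every position of the window was covered by a read of at least 1 library. Members covered 93.1% of its positions in A1a, 99.3% in A2d and 75.6% in A2h.

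The leading sequences are shown here as DNA letters with T for U. The stretch of the element that held the leading ends of both strands is shown first, with capitals for the 10 bases shared by the strongest sense and antisense pair, at 2425 to 2434.
Penelope plus strand, 2396 to 2434: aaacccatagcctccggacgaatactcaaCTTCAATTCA
In the sequences that follow, capitals mark bases 1 and 10. These 4 leading sense sequences of A1a and A2d begin inside this stretch. In A1a, the ones at 2397 and at 2408 to 2431 are among 4 tied at 9 reads, which also include 2425 to 2448 and 2654 to 2678.
Sense, 2398 to 2422: AcccatagcCtccggacgaatactc
Sense, 2397 to 2422: AacccatagCctccggacgaatactc
Sense, 2408 to 2431: TccggacgaAtactcaacttcaat
Sense, 2408 to 2432: TccggacgaAtactcaacttcaatt
The leading antisense sequences of A1a and A2d are read from the other strand.
Antisense, 2408 to 2434: TgaattgaaGttgagtattcgtccgga
Antisense, 2409 to 2434: TgaattgaaGttgagtattcgtccgg
Antisense, 2222 to 2246: TgttcgttaTggcaaaaaggtcatc
Antisense, 2766 to 2788: TtcgatcatCgggattttcgact
In A2h, 7 antisense sequences tied at 2 reads, none of them among these, and the first 3 by position are shown.
Antisense, 2222 to 2248: TttgttcgtTatggcaaaaaggtcatc
Antisense, 2240 to 2264: TattttccaCgtctattttgttcgt
Antisense, 2245 to 2269: TagaatattTtccacgtctattttg

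Members were rich in sense reads in A1a and A2d and mostly antisense in A2h. A1a had 196 sense and 126 antisense member reads, A2d had 471 and 261, and A2h had 12 and 68. The antisense share of member reads was 39.1% (33.8–44.7%) for A1a, 35.7% (32.2–39.2%) for A2d and 85.0% (75.3–92.0%) for A2h. The intervals of A1a and A2d overlapped, and that of A2h lay apart from both. In the rest of each list the antisense share was 61.1% (58.5–63.6%) in A1a, 66.5% (64.8–68.1%) in A2d and 95.1% (93.1–96.6%) in A2h. The members' interval thus lay below that of the rest in each library.

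The rest contains the terminal repeats, so the earlier reading frame is the closer comparison. It was taken as sequences with 1 place and a start from 617 to 2200. There the antisense share was 57.0% (53.4–60.6%) in A1a, 61.2% (58.7–63.6%) in A2d and 98.9% (97.7–99.6%) in A2h. Per 100 nt of starts, sense reads numbered 33.6 in the window against 20.1 in the earlier frame in A1a, 80.8 against 39.2 in A2d and 2.06 against 0.379 in A2h. Antisense reads numbered 21.6 against 26.6 in A1a, 44.8 against 61.8 in A2d and 11.7 against 35.4 in A2h. Sense reads were therefore denser in the window than in the earlier frame and antisense reads sparser, in all 3 libraries. In A2h the sense densities rest on 12 reads in the window and 6 in the earlier frame. Reads of 1 sequence are not independent, so no p was computed for these differences.

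The window's shares of the sense reads had overlapping intervals in the 3 libraries. Of all listed sense reads, A1a had 25.7% (22.7–29.0%) in the window and A2d had 30.9% (28.6–33.3%). A2h had 26.7% (14.6–41.9%), which rests on 12 of 45 reads. Of all antisense reads it took 12.4% (10.4–14.6%), 11.1% (9.88–12.5%) and 9.67% (7.59–12.1%) in A1a, A2d and A2h. Neighbouring intervals overlapped on the antisense strand. On the sense strand the A1a interval just reached the lower bound of A2d, and that of A2h spanned both. Of all reads, members made up 18.1% (16.4–19.99%), 18.9% (17.7–20.2%) and 10.7% (8.57–13.1%).

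Member lengths centred on 25 and 26 nt, inside the range of the gel cut. The 322 member reads of A1a averaged 25.6 ± 1.49 nt, the 732 of A2d 25.9 ± 1.53 nt and the 80 of A2h 25.9 ± 1.60 nt (SD over reads). The class from 24 to 26 nt held 67.7% (62.3–72.8%) in A1a, 66.4% (62.8–69.8%) in A2d and 61.3% (49.7–71.9%) in A2h. The 3 intervals overlapped, and each overlapped that of the earlier frame, where the shares were 66.2%, 65.2% and 60.3%.

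By strand, antisense members were a little shorter than sense members in A1a and A2d. Antisense members averaged 25.3 ± 1.501 nt (SD over 126 reads) and sense members 25.8 ± 1.45 nt (SD over 196 reads) in A1a. In A2d the means were 25.5 ± 1.43 nt (SD over 261 reads) for antisense and 26.1 ± 1.54 nt (SD over 471 reads) for sense members. The gap is well within 1 SD of the reads. Reads of 23 nt made up 15.1% (9.33–22.5%) of antisense against 3.06% (1.13–6.54%) of sense members in A1a, and 6.90% (4.14–10.7%) against 0.425% (0.0515–1.53%) in A2d. In the antisense reads of the earlier frame they made up 4.03% (2.36–6.37%) in A1a and 1.33% (0.709–2.26%) in A2d. A single sequence of 23 nt, the antisense one at 2766 to 2788, supplied 9 of the 19 antisense reads of this length in A1a and 11 of 18 in A2d. With its mismatched copies at the same place, this site supplied 11 of the 19 in A1a and 15 of the 18 in A2d. In A2h antisense members averaged 26.04 ± 1.52 nt (SD over 68 reads).

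U as the first base, the mark of piRNAs that act as guides, was frequent on the antisense strand of the window. In A1a it opened 88.1% (81.1–93.2%) of antisense member reads, in A2d 83.9% (78.9–88.1%) and in A2h 73.5% (61.4–83.5%). The background, which is the U content of these reads with bases 1 and 10 left out, was 40.0%, 39.3% and 42.4%. All 3 intervals lay above that background, and that of A2h overlapped both others. With sequences of 2 or more reads only, the A2h share was 71.4% (41.9–91.6%) of 14 reads, and its background of 43.0% lay inside the interval. In antisense reads of the earlier frame the shares were 80.6% (76.5–84.2%), 82.5% (80.0–84.9%) and 83.1% (79.7–86.1%).

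Sense members began with U less often. The share was 41.8% (34.8–49.1%) in A1a, 42.3% (37.7–46.9%) in A2d and 41.7% (15.2–72.3%) in A2h, over backgrounds of 18.5%, 19.6% and 16.8%. In A1a and A2d the interval lay above the background, and in A2h it reached it. Sense reads of the earlier frame began with U in 62.3% (56.7–67.6%) in A1a and 62.0% (58.0–65.8%) in A2d, intervals that lay above those of the members. A opened 29.6% (23.3–36.5%) of sense member reads in A1a and 38.2% (33.8–42.8%) in A2d, against 17.0% (13.0–21.6%) and 16.1% (13.3–19.2%) in the earlier frame. The A content of these member reads was 39.0% in A1a, above the interval, and 37.3% in A2d, inside it. First-base A was thus below or at the background in the members, not in excess of it. The sense sequences that start at 2397 and 2398 begin with A. Without these 2 starts, an alternative chosen after seeing the data, U opened 50.6% (42.7–58.6%) of sense member reads in A1a and 53.4% (48.1–58.5%) in A2d. Since no read at these starts begins with U, the share was bound to rise. No starts were left out of the earlier frame.

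A at base 10, the mark of sense piRNAs made by slicing, was above the A content of the reads in the sense members of A1a and A2d. It was found in 51.5% (44.3–58.7%) of sense member reads in A1a and 43.7% (39.2–48.4%) in A2d, over backgrounds of 39.0% and 37.3%. With sequences of 2 or more reads only, the A2d share was 40.4% (35.1–45.9%), an interval that includes its background of 35.8%. In A2h it was 41.7% (15.2–72.3%) of 12 reads, and the background of 38.9% lay inside that interval. In the earlier frame the shares were 56.9% (51.3–62.4%) in A1a and 61.5% (57.6–65.4%) in A2d, where the interval lay above that of the members. Without the starts at 2397 and 2398, whose base 10 is C, the members' shares were 62.3% (54.4–69.8%) and 55.2% (50.0–60.3%). These shares too were bound to rise, and no starts were left out of the earlier frame.

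Antisense members of A1a and A2d carried A at base 10 less often than at their other positions. The share was 8.73% (4.44–15.1%) in A1a, over a background of 21.1%, and 9.20% (5.98–13.4%) in A2d, over 22.8%. Both intervals lay below the background. Antisense reads of the earlier frame had A at base 10 in 81 of 422 cases in A1a (15.5–23.3%) and 235 of 979 in A2d (21.4–26.8%), above the members' intervals. The A content of the earlier frame's reads is not given here for either strand. Its differences from the members at base 10 were therefore not separated from base content. In A2h it was 20.6% (11.7–32.1%) of antisense member reads, over a background of 18.8% that the interval includes.

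Sense and antisense members that overlap by 10 nt at their 5′ ends were in excess in A1a and A2d. Pairs were weighted by the product of their read counts. A1a had 270 read pairs at 10 nt, 7.56 times the mean of 35.7 pairs across the remaining overlaps between 1 and 20 nt. A2d had 1015, 6.85 times its mean of 148. In both libraries 10 nt was the most frequent overlap, ahead of 108 pairs at 17 nt in A1a and 301 pairs at 19 nt in A2d. A2h had 2 pairs at 10 nt against a mean of 2.58, which with 12 sense reads shows neither an excess nor its absence. With each sequence counted once the ratio was 2.02 in A1a, with 29 pairs, and 3.63 in A2d, with 191. On that count 10 nt still led in A2d, but in A1a 17 nt led with 37 pairs.

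A single pair of 5′ ends supplied most of this excess. A1a had 12 reads at the sense end 2425 and 20 at the antisense end 2434. A2d had 15 and 37, and A2h had none at either. Their first 10 bases are the capitals in the stretch above, and together they gave 240 of the 270 pairs in A1a and 555 of the 1015 in A2d. Without these 2 ends, an alternative chosen after seeing the data, the ratio was 0.881 in A1a and 3.19 in A2d. This pair was the largest at 10 nt, and no largest pair was left out for the other overlaps, so the ratio was bound to fall. By read pairs, the excess in A1a came mostly from this pair, whereas in A2d a smaller excess was present without it.

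The most abundant sequence on each side is given for the first pair as in A1a, and for the second and the last of the 4 leading pairs as in A2d. Capitals mark the first 10 bases, which are complementary within a pair.
Sense, 2425 to 2448: CTTCAATTCAaaccacccaaagag
Antisense, 2409 to 2434: TGAATTGAAGttgagtattcgtccgg
Sense, 2524 to 2551: TGAACATGAAatcaaagaacttttgacc
Antisense, 2510 to 2533: TTCATGTTCAatttctttgtggta
Sense, 2779 to 2803: GATGATCGAAaaaagcaacgtcgtt
Antisense, 2766 to 2788: TTCGATCATCgggattttcgact
The second pair of A2d, sense 2524 with antisense 2533, joined 34 and 5 reads into 170 pairs. In A1a the sense end 2524 had 14 reads and the antisense end 2533 had none, where a count of 0 allows up to 3 counts or 2.38% of antisense member reads. The third pair of A2d, sense 2237 with antisense 2246, joined 4 and 36 reads into 144 pairs. The last of the 4, sense 2779 with antisense 2788, joined 3 and 18 reads into 54.

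All 4 of these A2d pairs had U as the first base of the antisense partner, and so A at base 10 of the sense partner by complementarity. Their sense partners began with C, U, A and G. The second pair of A1a, sense 2408 with antisense 2417, had 15 and 1 reads, and the next ones, at sense ends 2321 and 2315, gave 6 and 3 pairs. The only pair of A2h was again sense 2408 with antisense 2417, with 1 and 2 reads. In A2d antisense 2417 had no read, although sense 2408 had 36. Of 8 paired ends in A1a and 25 in A2d, 4 were common to both.

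The partners differed between strands in A2d. Of antisense member reads, 50.6% (44.3–56.8%) in A2d and 22.2% (15.3–30.5%) in A1a had a sense partner at 10 nt, against means over other overlaps of 16.2% and 8.90%. The highest share at another overlap was 38.3% at 16 nt in A2d, below the share at 10 nt, and 24.6% at 14 nt in A1a, above it. Of sense member reads, 23.4% (19.6–27.4%) in A2d and 20.9% (15.4–27.3%) in A1a had an antisense partner at 10 nt. Those shares lay above the means of 17.9% and 10.4%, but below the highest at another overlap, 33.5% at 19 nt in A2d and 28.1% at 17 nt in A1a. In A2h 3 of 80 member reads had a partner, 3.75% (0.780–10.6%). With partners allowed anywhere on the element, the share of all member reads was 21.7% in A1a and 33.6% in A2d, against 21.4% and 33.1% with member partners only.

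Sense members with a 10 nt partner mostly carried A at base 10. The share was 90.2% (76.9–97.3%) of 41 partnered reads against 41.3% (33.5–49.5%) of 155 others in A1a. Among these 41, the 15, 6 and 3 sense reads at 2408, 2321 and 2315 each have their partner from 1 antisense read. With exact matches only, 14.5% of all A1a member reads had a partner, against 21.4% as reported. In A2d it was 81.8% (73.3–88.5%) of 110 partnered reads against 32.1% (27.3–37.2%) of 361 others. The partner's first base and this base pair with each other, so this share is not independent of the U at the start of antisense reads. For the first base of the sense reads themselves, U made up 43.9% (28.5–60.3%) of partnered and 41.3% (33.5–49.5%) of other reads in A1a, and 46.4% (36.8–56.1%) and 41.0% (35.9–46.3%) in A2d, with overlapping intervals. Antisense members of A2d began with U in 93.9% (88.4–97.3%) of 132 partnered reads and 73.6% (65.2–81.0%) of 129 others, while in A1a the intervals overlapped, at 92.9% (76.5–99.1%) and 86.7% (78.4–92.7%).

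The leading sense 5′ ends lay close together, at 2397, 2398 and 2408, in A1a and A2d. For end 2398 the counts were 17 (A1a), 64 (A2d) and 3 (A2h), which was 8.67% (5.13–13.5%), 13.6% (10.6–17.0%) and 25.0% (5.49–57.2%) of sense member reads. It ranked first in A2d and A2h and tied for first in A1a with end 2397, which had 17 reads there, 34 in A2d and none in A2h. End 2408 had 15, 36 and 1 reads. In A2h the end at 2604 came next with 2 reads, and the others had 1 read each, of which 2254 is the first by position. The intervals of A1a and A2d overlapped at all 3 ends.

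The starts at 2397 and 2398 had no 10 nt partner in any of the 3 libraries. Antisense reads with 5′ ends at 2406 or 2407 were listed in none of them. The sequence at 2398 to 2422 was the most abundant sense member of A1a, counted 10 times, and of A2d, counted 37 times. In A2h it tied with the one at 2604 to 2628 at 2 reads. The one at 2397 to 2422 had 9, 17 and 0 reads, and shares its 3′ end. The pair at 2408 to 2431 and 2408 to 2432 differed by the last base, and their order differed between A1a and A2d. In A1a the shorter had 9 reads and the longer 2, in A2d the shorter had 13 and the longer 18, and neither was listed in A2h.

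Antisense 5′ ends 2434 and 2788, which were among the leading ends of A1a and A2d, were not listed in A2h, and neither was end 2246. End 2434 held 15.9% (9.97–23.4%) of antisense member reads in A1a and 14.2% (10.2–19.0%) in A2d. In A2h, with 68 antisense member reads, a count of 0 allows up to 3 counts or 4.41%, below both intervals. End 2788 had 11 reads in A1a and 18 in A2d, or 8.73% (4.44–15.1%) and 6.90% (4.14–10.7%) of antisense member reads. It had none in A2h, a difference not detectable at this depth. End 2413 had 4 reads in A1a and none in A2d or A2h. Several antisense ends of A1a tied at 4 reads, and 2413 was named for its lowest position. The tied ends 2640, 2743 and 2797 had reads in all 3 libraries, and the tied end 2642 had reads in A1a and A2d. End 2246 set A2d apart from A1a, with 36 reads or 13.8% (9.85–18.6%) against 3 reads or 2.38% (0.494–6.80%) in A1a. Its main sequence, at 2222 to 2246, had 23 reads in A2d and 3 in A1a.

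Antisense members of A2h had few reads per end. Its first end, at 2423, had 3 reads, each of a different sequence, against 1 in A1a and none in A2d. The top 3 antisense ends held 10.3% (4.24–20.1%) of its reads, while those of A1a held 27.8% (20.2–36.5%) and those of A2d 34.9% (29.1–41.0%). Members seen a single time made up 87.3% (77.3–94.0%) of its sequences, 76.0% (69.1–82.0%) in A1a and 70.5% (65.5–75.2%) in A2d. No member of A2h had more than 2 reads, while the highest counts were 10 in A1a and 37 in A2d. These measures move with depth, which was 80 member reads in A2h against 322 and 732, and its part in them was not tested. They are not set beside the whole lists here, so they do not show a trait of the window. The sequences of A2h at 2222 to 2248 and 2245 to 2269 had 2 reads each there and none elsewhere. The one at 2240 to 2264 had 2 in A2h and 1 in each other library.

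Along the window, sense 5′ ends were most frequent at 2301 to 2400, where A1a had 59 reads, A2d 154 and A2h 5, and at 2601 to 2700, with 54, 113 and 4. Antisense 5′ ends were frequent at 2401 to 2500, with 34, 61 and 15 reads, at 2601 to 2700, with 25, 52 and 16, and at 2701 to 2800, with 33, 57 and 13. They were rare at 2501 to 2600, with 3, 14 and 3 reads. At 2201 to 2300 antisense ends made up 20.7% of the antisense members of A2d, 16.2% in A2h and 8.73% in A1a, and end 2246 supplied 36 of the 54 reads of A2d there.

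Antisense members near the repeat shared a 3′ end across several 5′ ends, a pattern chosen after its values were seen. At 3′ end 2766, A1a had 17 antisense reads from 7 sequences, A2d 28 from 10 and A2h 3 from 3. It was the leading antisense 3′ end in A1a, with 13.5% (8.06–20.7%) of the reads. Of these reads, 11 of 17 in A1a and 15 of 28 in A2d also shared the 5′ end 2788, and none in A2h did. Of its 6 exact matches, which form a ladder, 4 are shown, with capitals for the bases that reach past the shortest form.
Antisense, 2766 to 2788: ttcgatcatcgggattttcgact
Antisense, 2766 to 2789: Tttcgatcatcgggattttcgact
Antisense, 2766 to 2791: TTTttcgatcatcgggattttcgact
Antisense, 2766 to 2794: GCTTTTttcgatcatcgggattttcgact
The shortest had 9 reads in A1a and 11 in A2d but none in A2h. The form that starts at 2789 had 1 and 4 reads in A1a and A2d, the one at 2791 had 3 and 3, and the one at 2794 had 1 read each in A2d and A2h. The reads of A2h lay on forms of 25 to 29 nt, with 5′ ends from 2790 to 2794. All these sequences cross into the right repeat, which starts at 2784. Sense members at 3′ end 2422 had 21 (A1a), 58 (A2d) and 3 (A2h) reads. They also had several 5′ ends, from 2396 to 2398 in A1a and from 2396 to 2399 in A2d.

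U was also frequent just after the 3′ end of antisense members, read from the rebuilt element. In Drosophila such a U is known from piRNAs cut one after another from a transcript. This base was U in 64.3% (55.3–72.6%) of the antisense members of A1a, 62.5% (56.3–68.3%) of those of A2d and 82.4% (71.2–90.5%) of those of A2h by reads, over U contents of 40.0%, 39.3% and 42.4% in the same reads. The interval of A2h lay above that of A2d and overlapped that of A1a. In the earlier frame the shares were 64.4% (59.6–68.9%), 65.2% (62.1–68.2%) and 72.5% (68.7–76.2%). For sense members the base was U in 46.9% (39.8–54.2%) in A1a and 36.3% (32.0–40.8%) in A2d, over 18.5% and 19.6%.

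By number, most of the identical members were shared between A1a and A2d. They had 76 sequences in common, 48 sense and 28 antisense, which is 41.5% of the A1a list and 21.3% of the A2d list. These held 62.4% of the member reads of A1a and 49.0% of those of A2d. A1a and A2h shared 14 sequences, 7.65% of the A1a list and 19.7% of the A2h list, and A2d and A2h shared 21, 5.90% and 29.6% of their lists. Of these, 10 and 18 were antisense. With A2d, A1a shared 28 of its 86 antisense members and A2h 18 of its 61. Members made 508 distinct sequences from lists of 183, 356 and 71, and all listed sequences made 2670 from 970, 1800 and 474. The lists differ in depth and strand, and no chance overlap was computed. Sharing by pair over the whole lists is not given here, so no trait of the window is read from these counts.

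In all 3 libraries 9 members were found, 2 sense and 7 antisense. The sense sequence at 2398 to 2422 had the largest mean share of member reads, followed by another sense and an antisense one. These are shown with bases 1 and 10 in capitals.
Sense, 2604 to 2628: TcgaaagaaAaaagccaacagaacc
Antisense, 2773 to 2797: GttgcttttTtcgatcatcgggatt
In the order A1a, A2d and A2h, the first had 5, 5 and 2 reads, and the second 3, 2 and 2. By 5′ end and strand in place of whole sequence, A1a and A2d shared 81 ends, which held 84.2% and 75.0% of their member reads.

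Mismatches to the authors' Penelope sequence were carried by 47 of 322 member reads in A1a, or 14.6% (10.9–18.9%). They were in 90 of 732 in A2d, or 12.3%, and in 10 of 80 in A2h, or 12.5% (6.16–21.8%). Antisense members of A1a and A2d had more of them than sense members, at 23.0% (16.0–31.4%) against 9.18% (5.53–14.1%) in A1a and 18.0% (13.5–23.2%) against 9.13% (6.69–12.1%) in A2d. In A2h it was 10.3% (4.24–20.1%) of antisense against 25.0% (5.49–57.2%) of sense members, with overlapping intervals. With the 3 libraries pooled, mismatches were in at most 10.5% of the reads at any position covered by 10 or more, and 1 thinly covered position differed in most of its reads. The most frequent substitution, C2778A with the authors' base first on the plus strand, was in 1 of the 30 reads that cover it in A1a, in 3 of the 56 in A2d and in none of the 9 in A2h. The last base was mismatched in 2.48% (1.08–4.84%) of member reads in A1a and 2.73% (1.68–4.19%) in A2d, above 0.526% and 0.429% per inner base.

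At the window's edges, the last sequences left out started at 2200, with 1 read in A1a and 2 in A2d. The first taken started at 2201, with 3 reads in A2d and 1 in A2h. The last member started at 2781, with 1 read in A2d, and the farthest base covered by a member was 2807. After it, the next lowest start of any listed sequence was 2955.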

How the data were processed

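RNA between 23 and 29 nt was taken from a 15% polyacrylamide gel, ligated to adapters and amplified by PCR, per the labels' protocols. Aligner, adapter trimming and Penelope reference were not given in the sources used here. Per the file headers, the deposited values are raw read counts per sequence, with strand, start, end and mismatches on Penelope beside them. Depth was 1777, 3870 and 748 listed reads in A1a, A2d and A2h. Of the lines, 3 in A1a and 2 in A2d were empty and not analysed here.

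Each sequence was counted once. Because end minus start gave the length on every line, starts were read from 0 and are printed from 1. The 5′ end of an antisense sequence is its highest position. The element was rebuilt from the sequences with listed mismatches replaced, and no position received contradictory bases. Overlaps were scored among members. The readout was also run on simulated random ends, which lack the uneven counts of these data and so do not bear on the ratios reported. Named were the 3 leading sequences and 5′ ends per strand and library, with ties in order of position, the 4 leading pairs of A1a and A2d with all pairs of A2h, and the 3 leading sequences in all libraries. The members and lists were chosen with earlier results of these data known. Python 3.11.15, pandas 2.3.3 and SciPy 1.17.1 were used.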

Additional observations from a re-analysis of the deposited data

How the results depend on the processing

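Of 220 values under 11 other settings, 174 stayed within the interval of the reported share, or within 1.5 times the reported ratio or count, and 46 moved beyond it. Some values could not move, so these counts do not measure stability. All members of A1a and A2h had 23 to 29 nt, and A2h had no read at the ends 2425 and 2434. Leaving out sense ends cannot change the base shares of antisense members. In no setting did the strand with more reads change. With each distinct sequence counted once, however, the antisense interval of A1a, 39.6–54.5%, included an equal split. The cause of a move was not tested, beyond what each setting leaves out.

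Counting each distinct sequence once moved the antisense share to 47.0% in A1a and 42.7% in A2d, the 24 to 26 nt share to 61.2% and 60.96%, and the leading antisense 5′ end to 4.65% and 6.58%. It moved the share of reads with a 10 nt partner to 16.9% in A1a, and the 10 nt ratio to 2.02 in A1a, 3.63 in A2d and 0.5 in A2h. In A2d sense members, U at base 1 moved to 33.8%, A at base 10 to 50.0% and the leading 5′ end to 4.41%.

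With sequences of 2 or more reads only, the antisense share was 30.60% in A1a and 30.56% in A2d. The 24 to 26 nt share was 77.6% in A1a, 70.3% in A2d and 88.9% in A2h. The leading antisense end held 33.9%, 21.8% and 14.3%, and the leading sense end of A2d 18.0%. Partner shares were 16.4%, 20.8% and 0%, and 10 nt ratios 38.2, 21.9 and 0. A at base 10 of antisense members was 3.57% in A1a, and U at base 1 was 88.4% in A2d.

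Without the most abundant sequence of each strand, the leading antisense end of A1a held 9.40% and the leading sense end of A2d 8.29%. With exact matches only, the partner share was 14.5% in A1a, and in A2h both the partner share and the ratio were 0. By 5′ ends in place of sequences, A1a and A2h shared 29 and all 3 libraries shared 21.

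No value moved with reads of 23 to 29 nt only, without sequences that reach the right repeat, with partners anywhere on the element or with members chosen by the 5′ end. The next 2 settings were chosen after seeing the data. Without the ends 2425 and 2434, the partner share was 12.8% in A1a and 27.9% in A2d, and the ratio 0.881 and 3.19. Without the sense ends 2397 and 2398, sense U at base 1 was 50.6% and 53.4%, and sense A at base 10 was 62.3% and 55.2%. The antisense share of A2d was then 41.2%. These ends hold sense reads with neither base, so all of these shares were bound to rise. No paired analysis was possible because each strain had 1 library. The sense values and 10 nt pairs of A2h rest on 12 sense member reads. No total library size was given, so counts cannot separate depth from abundance.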
